A study of Arabidopsis thaliana with 12 samples.

Results

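The scv1 mutation was compared in plants that all carried the cpr5 mutation: 2 arrays of cpr5scv1 were set against 2 arrays of cpr5, which together are 4 of the 12 arrays of the series. All 22746 probe sets other than the 64 array controls belong to the comparison, and 15923 of them passed a filter on dim signal and were tested. CPR5 is a nuclear membrane protein of Arabidopsis thaliana, and plants that lack it form spontaneous lesions, age early and keep defence genes active without a pathogen. Resistance to biotrophic pathogens depends largely on salicylic acid, and resistance to necrotrophic fungi largely on jasmonate and ethylene. Growth and defence compete for resources, and loosening of the cell wall, sugar export and secondary metabolism are among the processes that shift with an immune response.

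The plants were grown for 2 weeks at 23 C and 70% humidity under fluorescent light with a 16 h photoperiod, and total RNA of the aerial parts was hybridised to Affymetrix ATH1 arrays. The groups used here, each of 2 arrays, were cpr5scv1 and cpr5, the triple mutant cpr5npr1svi1, the double mutant cpr5npr1, the npr1 mutant, and the Columbia wild type (WT). The labels describe scv1 as a suppressor: in the double mutant, susceptibility to the downy mildew P. parasitica is back at the wild-type level, that to the bacterium P. syringae is slightly raised, and plants resist the grey mould B. cinerea. The labels used here do not say which gene scv1 affects, and no scv1 single mutant is among the samples, so every scv1 value below was measured with cpr5 in the background. Nothing states whether the 2 arrays of a genotype came from separately grown plants. A p-value here rests on a spread per probe set that all 6 groups share. It reflects how far the arrays of a genotype lie apart once the replicate difference common to all groups is removed. That spread could be technical.

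Values are MAS5 signal, an estimate of transcript abundance per probe set on a linear scale, and differences are log2 of that signal, cpr5scv1 minus cpr5. Array signal had medians from 36.8 to 43.5, and 76.9% to 79.5% of probe sets lay above the background signal of 7.76, the 95th percentile of the bacterial control sets. The leaf gene RCA was bright in all arrays, at 4172 and 4279 in cpr5scv1, 3824 and 4747 in cpr5 and 4804 and 6054 in WT, while the pollen gene AT5G45880 had 5.17 and 1.35 in cpr5scv1, 8.56 and 1.42 in cpr5 and 2.54 and 3.46 in WT. Root genes PYK10 and EXPA7 together had a signal of 782 and 612 in cpr5scv1, 572 and 302 in cpr5 and 175 and 775 in WT. Of the root markers, 2 of 6 had a probe set with a single listed gene, and none of the flower and seed markers had one. The part of root RNA in the results was not tested. In whole aerial parts, fewer cells of a type and less RNA per cell cannot be told apart.

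A probe set was called where limma, fitted with the replicate number as a block, gave a Benjamini-Hochberg adjusted p below 0.05. In cpr5scv1, 605 of 15923 probe sets (3.8%) differed from cpr5, 254 of them higher (1.6%) and 351 lower (2.2%). Among the 605 calls, 272 were over 2-fold, 119 higher and 153 lower. The median difference over all probe sets was -0.03 on the log2 scale. Every called probe set moved the same way in both replicate pairs, and over all probe sets the differences of pair 1 and pair 2 correlated at r = 0.523, a value across probe sets that are not independent replicates. Without the replicate block 128 probe sets were called, all of them among the 605. Leaving out 1 of the 4 arrays compared brought the count to 72 (without cpr5scv1 replicate 1), 177 (without cpr5scv1 replicate 2), 96 (without cpr5 replicate 1) or 122 (without cpr5 replicate 2). In total, 56 probe sets were called whichever of the 12 arrays was left out, 18 of them higher and 38 lower. With no intensity trend in the fit the count was 225. The arrays of cpr5scv1 and cpr5 did not overlap in 6918 of all 15923 probe sets (43.4%) and in 592 of the 605 calls. The cpr5scv1 arrays lay beyond all cpr5 and WT arrays on one side in 30.2% of all probe sets, and in 17.1% the 3 genotypes formed separate steps with cpr5 between, so the positions of the arrays given below for single genes are descriptions. A single listed gene was available for 286 of the 605 calls, and the other 319 are not named here. A gene given only as a locus code has no symbol or function in the annotation used.

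**Figure D1:**
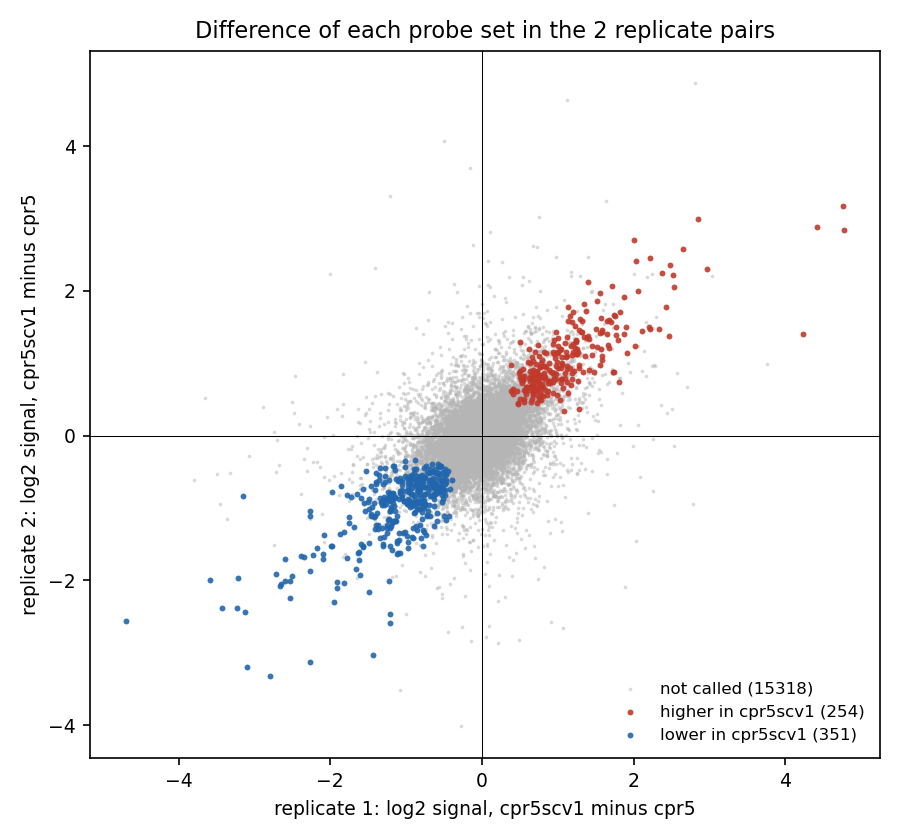
Log2 signal difference, cpr5scv1 minus cpr5, of each of 15923 probe sets in replicate 1 (horizontal axis) and replicate 2 (vertical axis). The 254 probe sets called higher (red) and the 351 called lower (blue) lie in the upper right and lower left corners, and grey points were not called.

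Of the 12 largest falls with a listed gene, groups that did not overlap and a brighter group mean at or above the median signal, 1 was in a gene with a symbol. Dimmer genes such as CR4 and BZIP34 are described further below. EXORDIUM (EXO), a brassinosteroid-responsive gene that promotes cell expansion in leaves, had a signal of 134 and 179 in cpr5scv1, against 1163 and 965 in cpr5 and 550 and 580 in WT. Its cpr5scv1 arrays lay below both the cpr5 and the WT arrays. EXO fell by 2.78 on the log2 scale relative to cpr5 (SE 0.22, limma adjusted p = 0.000461). Relative to WT, EXO was lower in cpr5scv1 by a log2 difference of -1.87 (adjusted p = 0.00018), while it was higher in cpr5 by 0.91 (adjusted p = 0.0193).

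In the list of cell wall loosening and synthesis genes, 0 of 30 rose and 4 fell, which is 13.3% against 3.8% of all probe sets, and the list median was -0.37 against -0.03. In all, 22 of the 30 differences were below 0. The other 26 were not called. The lists here and below were chosen with earlier results of these data known, so their shares beside all probe sets are descriptions. The 4 that fell were 3 xyloglucan endotransglucosylase/hydrolases, enzymes that cut and rejoin the xyloglucan of the wall, and 1 expansin. EXGT-A3 had a signal of 408 and 424 in cpr5scv1, against 1022 and 797 in cpr5 and 760 and 811 in WT (log2 change -1.12 with an SE of 0.13, adjusted p = 0.0023), and its call was kept in every alternative fit. XTH16 had 114 and 161 in cpr5scv1, against 376 and 289 in cpr5 and 267 and 287 in WT (log2 change -1.29, adjusted p = 0.00615). XTH32 had 142 and 152 in cpr5scv1, against 258 and 362 in cpr5 and 306 and 466 in WT (log2 change -1.06, adjusted p = 0.0169). For these 3 enzymes both cpr5scv1 arrays lay below all arrays of cpr5 and WT. The expansin EXPA20 was below background in both cpr5scv1 arrays, at 4.54 and 3.39, against 23.2 and 10.8 in cpr5. It was thus at least 2.04-fold lower (adjusted p = 0.0458 for the fitted difference). The XTH16 call was lost without cpr5scv1 replicate 1 (adjusted p = 0.0973) or cpr5 replicate 1 (0.065), and the XTH32 call without any 1 of the 4 arrays compared (0.0678 to 0.164) or without the block (0.0741). The EXPA20 call was lost in 8 of the 12 omissions (adjusted p 0.058 to 0.338), without the block (0.101), with a pseudocount of 32 (0.11), without a filter (0.0739), without the intensity trend (0.0512) and with just the groups compared in the fit (0.0682).

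Members of the wall list that did not pass lay on both sides of 0. EXLA1, an expansin-like gene, had 66.9 and 81.7 in cpr5scv1, against 438 and 116 in cpr5 (log2 difference -1.61, adjusted p = 0.148). The cellulose synthase-like gene CSLA03 had 153 and 165 in cpr5scv1, against 298 and 219 in cpr5 (log2 difference -0.69, adjusted p = 0.095). On the other side, EXPA9, an expansin, had 67.6 and 94.5 in cpr5scv1, against 44.7 and 47.1 in cpr5 (log2 difference 0.80, adjusted p = 0.0896). In these 3 genes the arrays of cpr5scv1 and cpr5 did not overlap, as in 43.4% of all probe sets tested, and none was called.

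A further 6 genes outside the list were chosen for description from the called falls after their values were seen, so their common direction was fixed by the choice. TBL26, of a family of wall polysaccharide acetyltransferases, had 26.7 and 26.2 in cpr5scv1, against 81.9 and 85.7 in cpr5 and 114 and 139 in WT (log2 change -1.66, adjusted p = 0.00401). RALFL33, which encodes a secreted peptide of the rapid alkalinization factor family, had 179 and 235 in cpr5scv1, against 442 and 436 in cpr5 (log2 change -1.10, adjusted p = 0.00832). THE1, a receptor kinase that monitors wall integrity, had 96.5 and 75.2 in cpr5scv1, against 216 and 147 in cpr5 (log2 change -1.06, adjusted p = 0.0118). Smaller falls were those of STOMAGEN, a secreted peptide that promotes stomata (log2 change -0.74, adjusted p = 0.0466), the actin gene ACT11 (-0.75, adjusted p = 0.0341) and TBL25 (-0.58, adjusted p = 0.0406). The TBL26 call was lost without cpr5 replicate 1 (adjusted p = 0.0544). The RALFL33 call was lost without cpr5 replicate 1 (0.0952), cpr5scv1 replicate 1 (0.102) or cpr5scv1 replicate 2 (0.0591) and without the block (0.0912). The calls of THE1, STOMAGEN, ACT11 and TBL25 were lost without any 1 of the 4 arrays compared (0.0505 to 0.346) and without the block (0.0925 to 0.185).

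Sugar transporters of the SWEET family included 4 called falls. SWEET proteins move sugars across membranes, several of them exporting sucrose to the phloem or to the space between cells. Of 12 SWEET genes tested, 0 rose and 4 fell, which is 33.3% against 3.8% of all probe sets. The list median was -0.51 against -0.03 over all probe sets, and -0.31 with the 2 members that had an array below background taken at their bounds. SWEET13 had 26.4 and 28.4 in cpr5scv1, against 105 and 81.9 in cpr5 and 50.6 and 32.4 in WT (log2 change -1.76 with an SE of 0.22, adjusted p = 0.00269). SWEET8 had 18.3 and 13.7 in cpr5scv1, against 45.1 and 39.5 in cpr5 and 15 and 12.4 in WT (log2 change -1.41, adjusted p = 0.0106). Both genes were higher in cpr5 than in WT, with log2 differences of 1.19 for SWEET13 (adjusted p = 0.00512) and 1.63 for SWEET8 (adjusted p = 0.00127). Between cpr5scv1 and WT neither was called, with differences of -0.57 for SWEET13 (adjusted p = 0.0709) and 0.22 for SWEET8 (adjusted p = 0.505). These comparisons share the cpr5 and cpr5scv1 arrays and are not independent of one another.

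SWEET16, a vacuolar sugar transporter, had 49.8 and 60.4 in cpr5scv1, against 84.9 and 99.1 in cpr5 and 108 and 153 in WT (log2 change -0.74, adjusted p = 0.0278). SWEET1 had 198 and 140 in cpr5scv1, against 296 and 230 in cpr5 and 224 and 173 in WT (log2 change -0.65, adjusted p = 0.0137). The cpr5scv1 and cpr5 arrays of both genes did not overlap. The other 8 were not called. SWEET15, listed as SAG29 for its induction in senescent leaves, had 81 and 169 in cpr5scv1, against 17.8 and 37 in cpr5, and missed the threshold (log2 difference 2.19, adjusted p = 0.0702). The brightest member, SWEET11, had 1287 and 1548 in cpr5scv1, against 1171 and 1040 in cpr5 (log2 difference 0.36, adjusted p = 0.164). The SWEET13 call was lost without cpr5scv1 replicate 1 (adjusted p = 0.0525) or cpr5 replicate 1 (0.0503). The calls of SWEET8, SWEET16 and SWEET1 were lost without any 1 of the 4 arrays compared (0.0701 to 0.212), and those of SWEET16 (0.253) and SWEET1 (0.344) also without the block.

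From the called genes with a symbol outside the list, 2 more that act on sugars were picked after their values were seen. Their common direction is therefore a description, and called genes with only a locus code were not searched for such roles. The vacuolar monosaccharide transporter TMT2 had 49.4 and 61.2 in cpr5scv1, against 103 and 97.8 in cpr5 (log2 change -0.86, adjusted p = 0.022). The sucrose phosphate synthase gene ATSPS4F had 97.2 and 127 in cpr5scv1, against 222 and 232 in cpr5 and 580 and 351 in WT (log2 change -1.03, adjusted p = 0.0296), so that its 3 genotypes formed separate steps. AKINBETA1, a regulatory subunit of the energy-sensing kinase SnRK1, was higher, at 399 and 402 in cpr5scv1 against 259 and 230 in cpr5 (log2 change 0.71, adjusted p = 0.0143). The TMT2 and ATSPS4F calls were lost without cpr5scv1 replicate 1 (adjusted p 0.216 and 0.272), cpr5 replicate 1 (0.153 and 0.128) or cpr5 replicate 2 (0.149 and 0.222), that of ATSPS4F also without either cpr5npr1svi1 array (0.052 and 0.0521), and that of AKINBETA1 without any 1 of the 4 arrays compared (0.0931 to 0.132). All 3 were lost without the block (0.0652 to 0.0824).

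**Figure D2:**
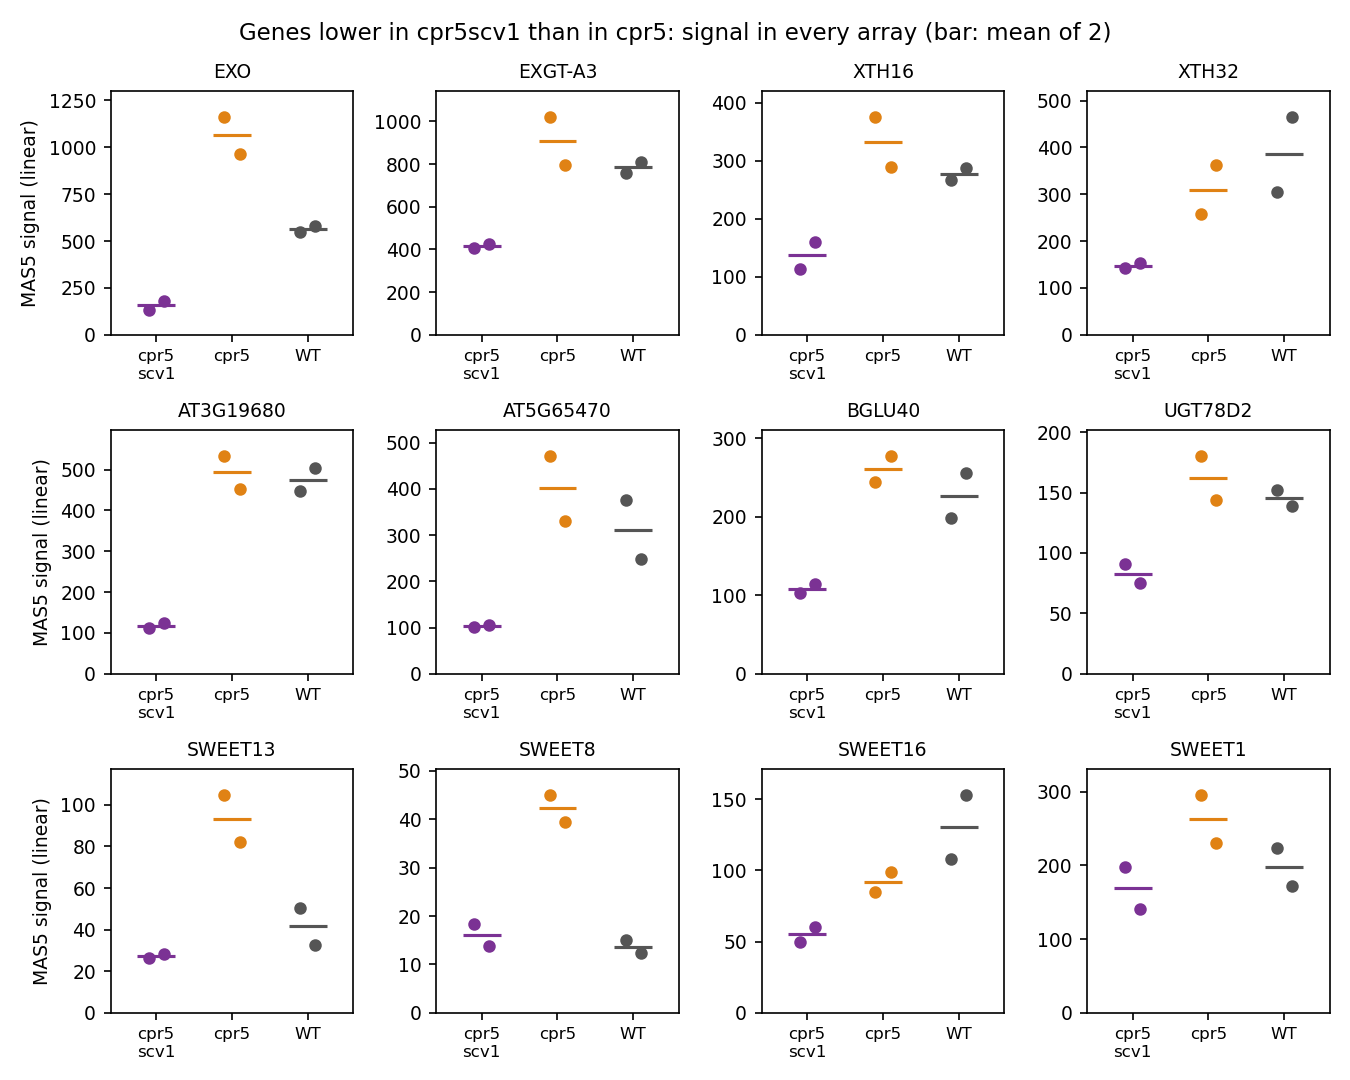
MAS5 signal of 12 genes called lower in cpr5scv1 than in cpr5, with 1 point per array, the bar at the mean of 2 arrays, and cpr5scv1, cpr5 and WT from left to right. The vertical axes are linear and start at 0; EXO lies at 134 and 179 in cpr5scv1, and SWEET8 at 18.3 and 13.7, close to its WT arrays.

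Of 4 flavonoid genes tested, 0 rose and 2 fell. Flavonoids and anthocyanins are phenolic pigments that absorb ultraviolet light and accumulate under stress. All 4 tested members of the phenylpropanoid, flavonoid and anthocyanin list were below 0, with a median of -0.86 against -0.03 over all probe sets. The 2 called are 50% of the tested members, against 3.8% of all probe sets. The list holds 24 genes, and those not tested had no probe set with a single listed gene. AT4G14090, a list member, had 41.7 and 15.6 in cpr5scv1, against 96.1 and 86 in cpr5 and 57.2 and 45.1 in WT (log2 change -1.83, adjusted p = 0.0118). UGT78D2, a flavonoid glucosyltransferase, had 90.7 and 74.8 in cpr5scv1, against 181 and 143 in cpr5 and 152 and 139 in WT (log2 change -0.97, adjusted p = 0.0118). The dihydroflavonol reductase gene DFR was not called, at 321 and 207 in cpr5scv1 against 477 and 399 in cpr5 (log2 difference -0.76, adjusted p = 0.113), and neither was UF3GT (-0.53, adjusted p = 0.514). Outside the list, UGT78D1 and CHIL were picked from the called falls after their values were seen, so their direction was fixed by the choice. The log2 change was -0.87 for the flavonol rhamnosyltransferase gene UGT78D1 (adjusted p = 0.0156). It was -0.93 for CHIL, a chalcone isomerase-like gene of the same pathway (adjusted p = 0.0356). The AT4G14090 call was lost without cpr5scv1 replicate 2 (adjusted p = 0.102), cpr5 replicate 2 (0.129) or the block (0.183). Those of UGT78D2, UGT78D1 and CHIL were lost without any 1 of the 4 arrays compared (0.0536 to 0.268) and without the block (0.0766 to 0.267).

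Glucosinolates are sulfur-rich defence compounds of the cabbage family. Of the aliphatic glucosinolate list, 0 of 3 tested genes rose and 1 fell, which is 33.3% against 3.8% of all probe sets. With so few genes tested, 1 call is a description of that gene and not of the list. The gene, AT2G31790, had 150 and 112 in cpr5scv1, against 217 and 211 in cpr5 and 336 and 386 in WT (log2 change -0.72, adjusted p = 0.029). Its 3 genotypes did not overlap. Outside the list, AOP1 and BGLU40 were picked from the called falls after their values were seen, so their direction was fixed by the choice. AOP1, of the oxygenase family that modifies glucosinolate side chains, had 49.7 and 54 in cpr5scv1, against 112 and 103 in cpr5 (log2 change -1.05, adjusted p = 0.0126). BGLU40, of the beta-glucosidase family, had 102 and 114 in cpr5scv1, against 244 and 278 in cpr5 (log2 change -1.27, SE 0.15, adjusted p = 0.00241), a call kept in every alternative fit. IAGLU, which conjugates auxin to glucose, had 47.1 and 56.4 in cpr5scv1, against 109 and 134 in cpr5 (log2 change -1.23, adjusted p = 0.00288). It was the 1 gene called of 9 in the auxin list, which is 11.1% against 3.8% of all probe sets, and describes that gene only. The calls of AT2G31790 and AOP1 were lost without any 1 of the 4 arrays compared (adjusted p 0.0574 to 0.206), that of AT2G31790 also without the block (0.104), and that of IAGLU without cpr5scv1 replicate 1 (0.0528).

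Further falls with a symbol covered the chloroplast, light signalling and redox metabolism. The chloroplast chaperonin gene Cpn60beta2 had 370 and 272 in cpr5scv1, against 533 and 447 in cpr5 and 860 and 809 in WT (log2 change -0.62, adjusted p = 0.0352). AOR, which encodes a chloroplast reductase of reactive carbonyls, had 605 and 424 in cpr5scv1, against 937 and 781 in cpr5 and 1307 and 1381 in WT (log2 change -0.76, adjusted p = 0.0262). Both genes were already lower in cpr5 than in WT, Cpn60beta2 by -0.77 (adjusted p = 0.00412) and AOR by -0.65 (adjusted p = 0.016) on the log2 scale. AFR, an F-box gene of far-red light signalling, had 46.7 and 48 in cpr5scv1, against 157 and 105 in cpr5 (log2 change -1.44, adjusted p = 0.0237). CDI, listed as cadmium-induced, had 180 and 225 in cpr5scv1, against 493 and 447 in cpr5 and 493 and 449 in WT (log2 change -1.22, adjusted p = 0.00532). ARD4, of the methionine salvage cycle, had 261 and 293 in cpr5scv1, against 468 and 492 in cpr5 and 747 and 625 in WT (log2 change -0.79, adjusted p = 0.0166). DJ1D, of the DJ-1 family, had a log2 change of -0.46 (adjusted p = 0.0496). The CDI call was lost without cpr5scv1 replicate 1 (adjusted p = 0.0841) or cpr5 replicate 1 (0.0711). The other 5 were lost without any 1 of the 4 arrays compared (0.0775 to 0.321) and without the block (0.0637 to 0.342).

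The photosynthesis lists gave 0 calls. In the list of nuclear photosynthesis and chlorophyll synthesis genes, 0 of 12 were called, the differences ranged from -0.25 to 0.34 and the median was -0.00. Of 69 chloroplast-encoded genes, 0 were called, with a range of -0.48 to 0.29 and a median of -0.05. LHCB4.1, a light-harvesting protein gene, had 3950 and 4497 in cpr5scv1, against 3896 and 4653 in cpr5. In the cell cycle, replication and histone list 0 of 6 were called, all 6 below 0 with a median of -0.34. The photorespiration list had 0 calls of 3 and a median of -0.16.

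The 12 largest falls with a locus, brighter than the median signal of all probe sets, included 11 genes with no symbol besides EXO. AT3G19680 had 111 and 124 in cpr5scv1, against 534 and 453 in cpr5 and 447 and 503 in WT (log2 change -2.07 with an SE of 0.16, adjusted p = 0.000461). AT5G65470 had 101 and 105 in cpr5scv1, against 472 and 330 in cpr5 and 375 and 249 in WT (log2 change -1.94 with an SE of 0.17, adjusted p = 0.000537). In both genes every cpr5scv1 array was below every cpr5 and WT array. AT5G50915 had 74.8 and 59.8 in cpr5scv1, against 282 and 256 in cpr5 and 127 and 90.2 in WT (log2 change -2.01, adjusted p = 0.000461). AT1G60590 had 29.4 and 24.2 in cpr5scv1, against 104 and 99.5 in cpr5 and 239 and 189 in WT (log2 change -1.93, adjusted p = 0.000461). The last 2 differ in where cpr5 stood: AT5G50915 was higher in cpr5 than in WT by 1.33 (adjusted p = 0.000444), and AT1G60590 was lower by a log2 difference of -1.06 (adjusted p = 0.00156). AT4G26790 (log2 change -2.39, adjusted p = 0.00214), AT5G25240 (-2.27, adjusted p = 0.00142) and AT4G35320 (-2.15, adjusted p = 0.00142) completed the 7 unnamed loci whose calls were kept in every alternative fit.

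The remaining 4 were less stable. AT1G50040 had 9.22 and 18.7 in cpr5scv1, against 111 and 74.5 in cpr5 (log2 change -2.79, adjusted p = 0.0232). AT2G29300 had 10.8 and 15.1 in cpr5scv1, against 70.5 and 56.5 in cpr5 and 138 and 119 in WT (log2 change -2.31, adjusted p = 0.00615). AT5G62210 had 112 and 75 in cpr5scv1, against 419 and 304 in cpr5 (log2 change -1.96, adjusted p = 0.00724), and AT5G03120 had 23.6 and 70.4 in cpr5scv1, against 209 and 126 in cpr5 (-1.99, adjusted p = 0.0356). The calls of AT1G50040 and AT2G29300 were lost without cpr5scv1 replicate 1 (adjusted p 0.206 and 0.0941), cpr5 replicate 1 (0.156 and 0.0729) or cpr5 replicate 2 (0.152 and 0.0501). That of AT5G62210 was lost without any 1 of the 4 arrays compared (0.0519 to 0.0982), and that of AT5G03120 in 9 of the 12 omissions (0.05 to 0.297). Without the block AT1G50040 (0.077), AT5G62210 (0.108) and AT5G03120 (0.0898) were lost as well.

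Cytochrome P450 and UDP-glycosyltransferase genes included 5 called rises. Cytochrome P450 enzymes oxidise hormones and defence compounds, and UDP-glycosyltransferases attach sugars to them. Of 14 P450 genes tested, 2 rose and 0 fell, which is 14.3% against 3.8% of all probe sets, and the list median was 0.10 against -0.03. All tested members but CYP78A9, CYP84A4 and CYP51G2 carry a CYP71B symbol, as do both called genes, so the list does not describe P450 genes at large. CYP71B22 had 96.3 and 124 in cpr5scv1, against 18.6 and 26 in cpr5 and 42.4 and 29.9 in WT (log2 change 2.31 with an SE of 0.27, adjusted p = 0.0023). CYP71B6 had 260 and 287 in cpr5scv1, against 121 and 118 in cpr5 and 161 and 126 in WT (log2 change 1.19 with an SE of 0.14, adjusted p = 0.0023). Both cpr5scv1 arrays of each gene lay above every cpr5 and WT array, and both calls were kept in every alternative fit.

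Of 28 UDP-glycosyltransferases, 3 rose and 2 fell, which is 17.9% against 3.8% of all probe sets, and the list median was -0.05 against -0.03. The 2 that fell are the flavonoid enzymes UGT78D2 and UGT78D1 described above. UGT71C5, which glucosylates abscisic acid, had 106 and 108 in cpr5scv1, against 40 and 24.7 in cpr5 and 61.7 and 59.9 in WT (log2 change 1.77 with an SE of 0.21, adjusted p = 0.00241). UGT72E1, which glucosylates lignin precursors, had 88.8 and 139 in cpr5scv1, against 24.1 and 37 in cpr5 and 24.3 and 53.8 in WT (log2 change 1.90 with an SE of 0.21, adjusted p = 0.00214). UGT85A4 had 39.5 and 63.4 in cpr5scv1, against 8.6 and 22.4 in cpr5 and 23.7 and 44.1 in WT (log2 change 1.85, adjusted p = 0.00615). UGT71C5 and UGT85A4 were both lower in cpr5 than in WT, by log2 differences of -0.95 (adjusted p = 0.0126) and -1.22 (adjusted p = 0.0121). In cpr5scv1, UGT71C5 was above WT by 0.81 (adjusted p = 0.0137) and UGT85A4 overlapped it (0.63, adjusted p = 0.0965). The UGT71C5 call was kept in every alternative fit, and that of UGT72E1 was lost only without the block (adjusted p = 0.113). That of UGT85A4 was lost without cpr5scv1 replicate 1 (0.0786), cpr5scv1 replicate 2 (0.0523), cpr5 replicate 1 (0.0607) or the block (0.12). Of 8 glutathione S-transferase genes 0 were called, with a median of -0.10.

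From the called rises with a symbol, 3 genes with known roles in immune signalling were picked after their values were seen, so their common direction was fixed by the choice. In the list of salicylic acid and systemic resistance genes, 0 of 4 were called. BIK1, a cytoplasmic kinase that relays signals from immune receptors, had 208 and 182 in cpr5scv1, against 101 and 95.1 in cpr5 and 70.8 and 70.4 in WT (log2 change 0.99, adjusted p = 0.0264). PUB24, a ubiquitin ligase that restrains responses to microbial patterns, had 150 and 127 in cpr5scv1, against 63.7 and 51.8 in cpr5 and 16.4 and 31.8 in WT (log2 change 1.26, adjusted p = 0.0397). SGT1A, a co-chaperone of intracellular immune receptors, had 263 and 282 in cpr5scv1, against 176 and 189 in cpr5 and 98.5 and 125 in WT (log2 change 0.58, adjusted p = 0.0344). In each of the 3 genes the genotypes formed separate steps with cpr5scv1 on top and WT at the bottom. PUB24 and SGT1A were higher in cpr5 than in WT by 1.33 (adjusted p = 0.0108) and 0.71 (adjusted p = 0.00418) on the log2 scale, and BIK1 by 0.47, which was not called (adjusted p = 0.138). The 3 calls are fragile: that of BIK1 was lost without any 1 of the 4 arrays compared (0.11 to 0.218), that of PUB24 in 10 of the 12 omissions (0.0509 to 0.324), that of SGT1A in 8 (0.0542 to 0.242), and all 3 without the block (0.07 to 0.175).

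Calcium is a second messenger of immunity, and calmodulin-like proteins bind it. Of 6 calmodulin-like genes tested, 2 rose and 0 fell, which is 33.3% against 3.8% of all probe sets, and the list median was 0.45 against -0.03. CML38 had 81.8 and 135 in cpr5scv1, against 20 and 25.3 in cpr5 and 7.83 and 8.97 in WT (log2 change 2.22 with an SE of 0.50, adjusted p = 0.0376). CML42 had 148 and 171 in cpr5scv1, against 61.5 and 77 in cpr5 and 66.6 and 62.4 in WT (log2 change 1.21, adjusted p = 0.0185). The cpr5scv1 arrays of both lay above all cpr5 and WT arrays. Outside these genes, ACA.l was picked from the called rises after its values were seen. Annotated as an autoinhibited calcium ATPase, it had 269 and 273 in cpr5scv1, against 118 and 126 in cpr5 and 47.1 and 46.4 in WT (log2 change 1.15 with an SE of 0.15, adjusted p = 0.00312). The CML38 call was lost in 6 of the 12 omissions (adjusted p 0.0593 to 0.226), that of CML42 without any 1 of the 4 arrays compared (0.0758 to 0.193), both without the block (0.0821 and 0.133), and that of ACA.l without cpr5scv1 replicate 1 (0.0528) or cpr5 replicate 1 (0.0503).

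A further 6 called rises, in genes of varied roles, were chosen for description after their values were seen. ALN, the allantoinase of purine breakdown, had 103 and 100 in cpr5scv1, against 49.7 and 47.1 in cpr5 and 115 and 133 in WT (log2 change 1.07, adjusted p = 0.00931). It was lower in cpr5 than in WT by a log2 difference of -1.35 (adjusted p = 0.0007), and cpr5scv1 differed from WT by -0.28 without a call (adjusted p = 0.235). Fes1B, an exchange factor of Hsp70 chaperones, had 116 and 163 in cpr5scv1, against 38.5 and 60.7 in cpr5 (log2 change 1.51, adjusted p = 0.00826). ALDH2C4, an aldehyde dehydrogenase of phenolic acid synthesis, had 730 and 852 in cpr5scv1, against 420 and 518 in cpr5 (log2 change 0.76, adjusted p = 0.0326). ATMDAR2, which regenerates ascorbate, had 382 and 383 in cpr5scv1, against 211 and 258 in cpr5 (log2 change 0.71, adjusted p = 0.0458). MCCA, a carboxylase subunit of leucine breakdown, had 144 and 119 in cpr5scv1, against 83 and 57.6 in cpr5 (log2 change 0.92, adjusted p = 0.026). The syntaxin partner KEU, which serves membrane fusion during cell division, had 282 and 224 in cpr5scv1, against 171 and 164 in cpr5 (log2 change 0.59, adjusted p = 0.0458). It was the 1 gene called of 15 in the secretion list, which is 6.67% against 3.8% of all probe sets, and describes that gene only. The calls of ALN, Fes1B and MCCA were lost without any 1 of the 4 arrays compared (0.0598 to 0.224), those of ALDH2C4, ATMDAR2 and KEU in 6 to 8 of the 12 omissions (0.056 to 0.346), and all but that of ALN without the block (0.101 to 0.258).

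**Figure D3:**
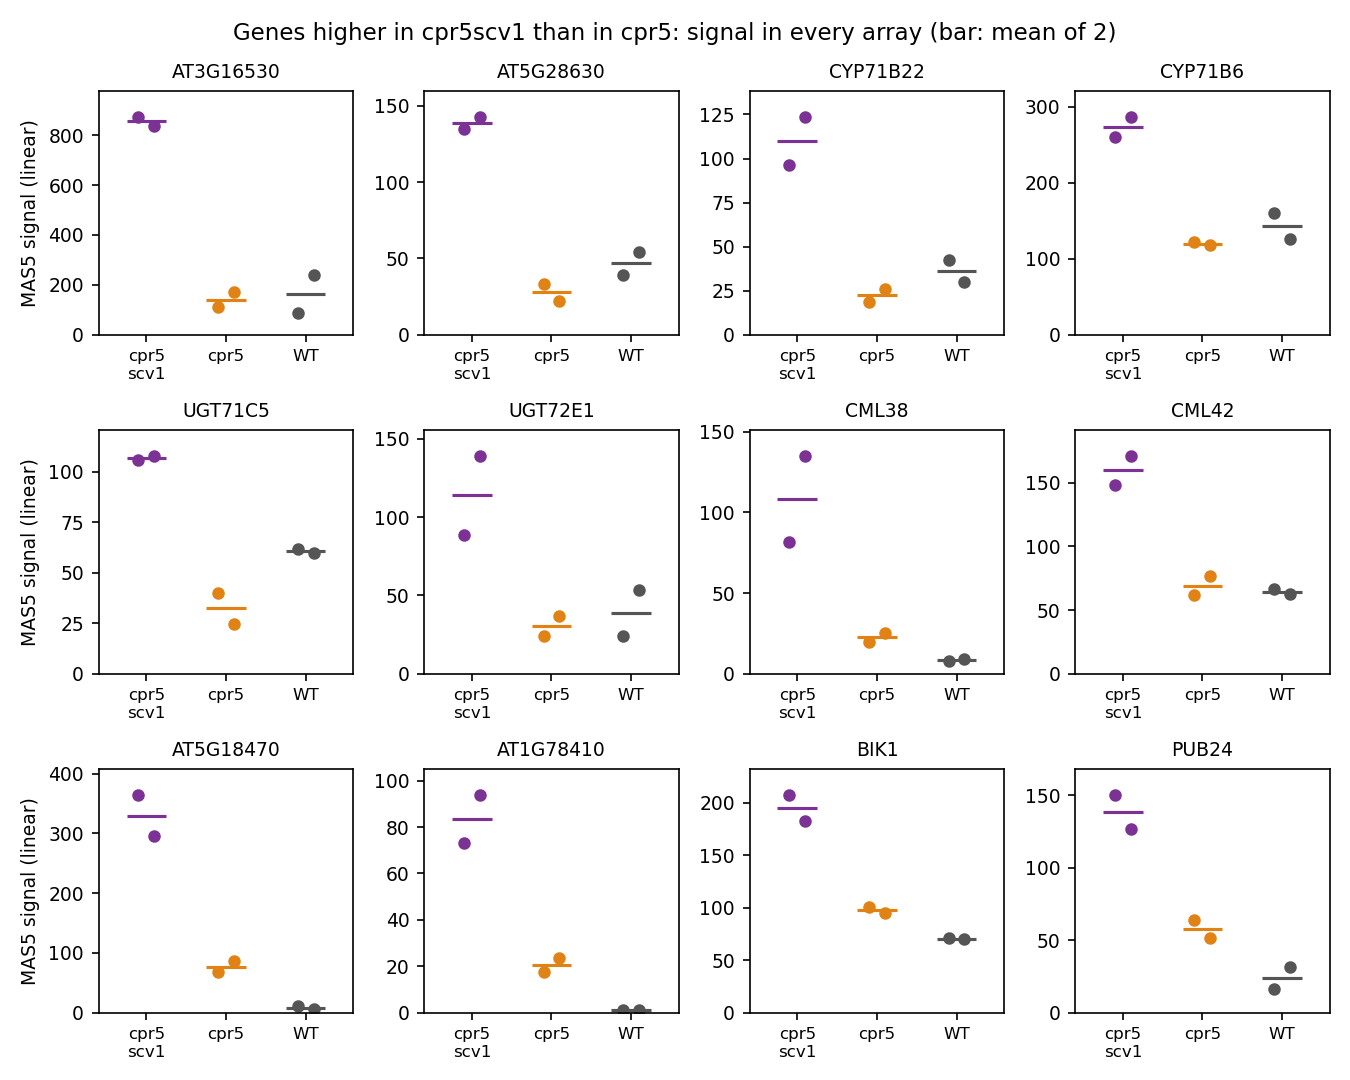
MAS5 signal of 12 genes called higher in cpr5scv1 than in cpr5, with 1 point per array, the bar at the mean of 2 arrays, and cpr5scv1, cpr5 and WT from left to right. The vertical axes are linear and start at 0; CYP71B6 lies at 260 and 287 in cpr5scv1, above its 4 other arrays, and AT5G18470 and PUB24 descend from cpr5scv1 through cpr5 to WT.

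The 12 largest rises with a locus, chosen under the same limit on signal, held 9 genes with no symbol. AT3G16530 had 874 and 837 in cpr5scv1, against 111 and 169 in cpr5 and 88.8 and 238 in WT (log2 change 2.64 with an SE of 0.29, adjusted p = 0.00203). AT5G28630 had 135 and 143 in cpr5scv1, against 33.5 and 22 in cpr5 and 39.4 and 54 in WT (log2 change 2.35 with an SE of 0.28, adjusted p = 0.0023). These 2 calls were kept in every alternative fit, and in both genes cpr5scv1 stood above cpr5 and WT. The largest change was that of AT3G23550, with 484 and 325 in cpr5scv1, against 22.7 and 44.1 in cpr5 and 62.6 and 25.4 in WT (log2 change 3.65 with an SE of 0.45, adjusted p = 0.00259), a call lost without cpr5scv1 replicate 1 (adjusted p = 0.0528). AT5G62360 had 39.9 and 50.3 in cpr5scv1 and was below background in both cpr5 arrays (5.52 and 6.34). It was thus at least 5.78-fold higher (adjusted p = 0.0171 for the fitted difference). AT1G05575 had 113 and 122 in cpr5scv1, against 24.3 and 22.2 in cpr5 and 19.1 and 24.6 in WT (log2 change 2.34, adjusted p = 0.0118).

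Another 4 of the 9 were already higher in cpr5 than in WT. AT5G18470 had 365 and 295 in cpr5scv1, against 67.9 and 85.9 in cpr5 and 10.5 and 6.1 in WT. AT1G78410 had 73.1 and 94 in cpr5scv1, against 17.6 and 23.6 in cpr5 and, below background, 1.18 and 1.09 in WT. AT3G54150 had 164 and 118 in cpr5scv1, against 29.6 and 45.1 in cpr5 and 8.31 and 6.98 in WT, and AT1G19020 had 383 and 402, against 66.1 and 96.5 in cpr5 and 21.4 and 45.4 in WT. All 4 stood in the same order, with cpr5scv1 highest and WT lowest and no overlap. Relative to cpr5, the rise in cpr5scv1 was 4.3-fold for AT5G18470 (adjusted p = 0.0144), 4.06-fold for AT1G78410 (adjusted p = 0.0193), 3.8-fold for AT3G54150 (adjusted p = 0.0216) and 4.91-fold for AT1G19020 (adjusted p = 0.0118). The calls of AT5G62360, AT1G05575 and these 4 genes were lost without any 1 of the 4 arrays compared (adjusted p 0.0539 to 0.22), and those of AT5G62360 (0.109), AT1G19020 (0.0526) and AT1G78410 (0.0519) also without the block.

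Defence hormone lists gave 0 calls. Of the 4 salicylic acid and systemic resistance genes tested, AT5G03350 had 2048 and 2423 in cpr5scv1, against 2077 and 2650 in cpr5 and 63.6 and 592 in WT (log2 difference -0.07, SE 0.56, adjusted p = 0.966). SAG101, which works with EDS1 in immune signalling, had 66.6 and 78.6 in cpr5scv1, against 46.1 and 39.8 in cpr5 (log2 difference 0.76, adjusted p = 0.274), and the list median was 0.24. All 5 jasmonate and ethylene genes had differences above 0 and 0 were called. Their median was 1.63, the value of THI2.1, and 1.58 with THI2.1 at its bound. The defensin gene PDF1.2 had 24 and 95.7 in cpr5scv1, against 10.6 and 20 in cpr5 and 4.48 and 15.2 in WT (log2 difference 1.71, SE 0.93, adjusted p = 0.383). THI2.1, a thionin, had 35.3 and 25.7 in cpr5scv1, against 7.32 and 13 in cpr5, with the first cpr5 array below background. Its log2 difference was thus at least 1.58 (adjusted p = 0.105 for the fitted difference). THI2.2 had 166 and 187 in cpr5scv1, against 125 and 68.1 in cpr5 and 291 and 1137 in WT. Its difference from cpr5 was 0.93 (adjusted p = 0.355), and relative to WT it was lower in cpr5scv1, at -1.71 (adjusted p = 0.02). The 2 cpr5scv1 arrays of PDF1.2 differ widely, and with 2 arrays a group the size of the difference is poorly fixed. PR1, PR2, PR5, CPR5 and NPR1 have no probe set with a single listed gene and are not analysed here.

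Senescence, WRKY and autophagy genes gave 0 calls. The senescence list had 3 tested genes, all above 0, with a median of 0.96. It shares WRKY53 and WRKY6 with the WRKY list and SAG29 with the SWEET list, so these lists are not separate observations. WRKY53, a transcription factor that promotes leaf senescence, had 172 and 192 in cpr5scv1, against 82.2 and 106 in cpr5 and 27.3 and 30.6 in WT (log2 difference 0.96, adjusted p = 0.0677). Of 6 WRKY genes 0 were called, with a median of 0.42. All 11 autophagy genes, which build the vesicles that carry cell contents to the vacuole, had differences above 0, from 0.12 to 0.66 with a median of 0.30, and 0 were called. The nearest was ATG8H, with 154 and 185 in cpr5scv1, against 90.9 and 126 in cpr5 and 42.8 and 51.7 in WT (log2 difference 0.66, adjusted p = 0.075). Of the other lists with at least 3 genes tested, 0 of 5 endoplasmic reticulum folding genes, 0 of 4 cold and abscisic acid genes, 0 of 3 heat shock genes, 0 of 7 glutamate receptor-like genes and 0 of 5 cytokinin, gibberellin and brassinosteroid genes were called. At an unadjusted p below 0.05, 2801 of all probe sets passed in the same fit.

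**Figure D4:**
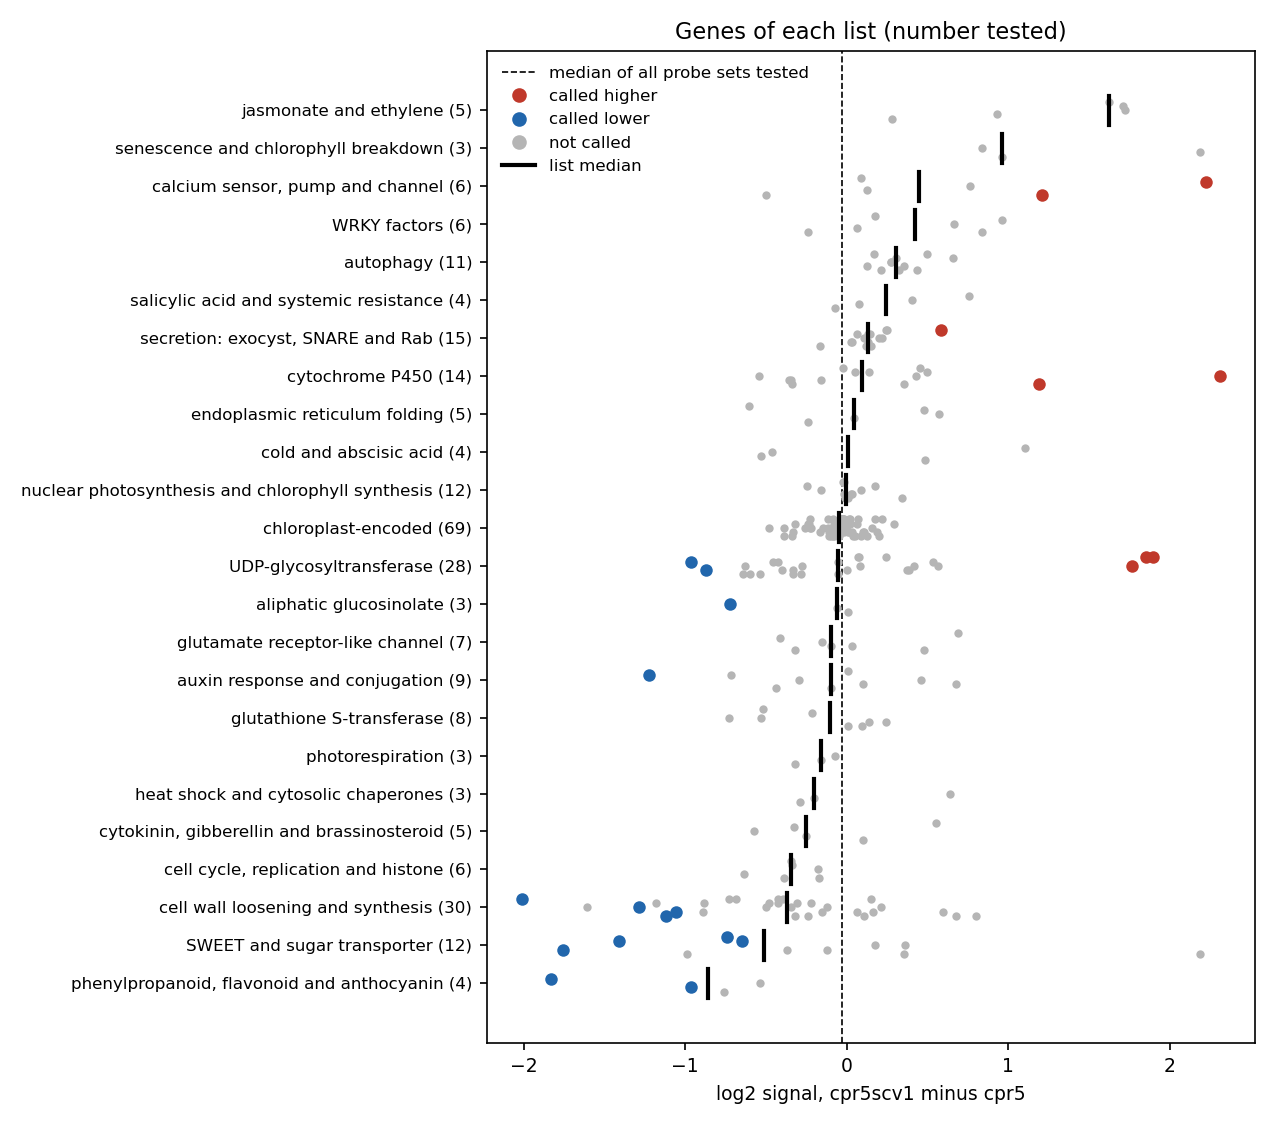
Log2 signal difference, cpr5scv1 minus cpr5, of each tested gene (points) in the lists with at least 3 tested genes, ordered by list median (black bars), with the number tested in brackets. Red and blue points were called higher and lower. The SWEET, cell wall and flavonoid lists at the bottom hold 4, 4 and 2 blue points, the jasmonate list at the top has a median of 1.63 as fitted (1.58 with THI2.1 at its bound) and no coloured point, and the dashed line marks the median of all probe sets, -0.03.

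The direction of the scv1 difference was then read in probe sets that respond to cpr5, called in a contrast of other arrays. The spread behind those calls was estimated from all 12 arrays, those of cpr5scv1 and cpr5 included. In cpr5npr1 against npr1, which share no array with cpr5scv1 or cpr5, 1649 probe sets were called (10.4%), 1162 higher (7.3%) and 487 lower (3.06%). The 1162 had a median of 0.37 in cpr5scv1 minus cpr5, at 0.38 in pair 1 and 0.35 in pair 2, against -0.03 over all probe sets tested. The 487 had a median of -0.22, at -0.22 in pair 1 and -0.23 in pair 2. Both medians point the way cpr5 itself moved these probe sets in npr1 plants. Of the 1162, 84 were called higher in cpr5scv1 (7.23%, against 1.6% of all) and 10 lower (0.861%, against 2.2%). Of the 487, 12 were called higher (2.46%) and 68 lower (14.0%). A probe set with a small shared spread is more easily called in both contrasts, so these shares are descriptions and not independent evidence. Under the 20 alternatives the first median ranged from 0.27 to 0.50 and the second from -0.26 to -0.17. AT5G18470, AT1G78410, AT3G54150, PUB24 and ACA.l are among the 84, SWEET8 is among the 10, and AT1G60590 is among the 68.

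**Figure D5:**
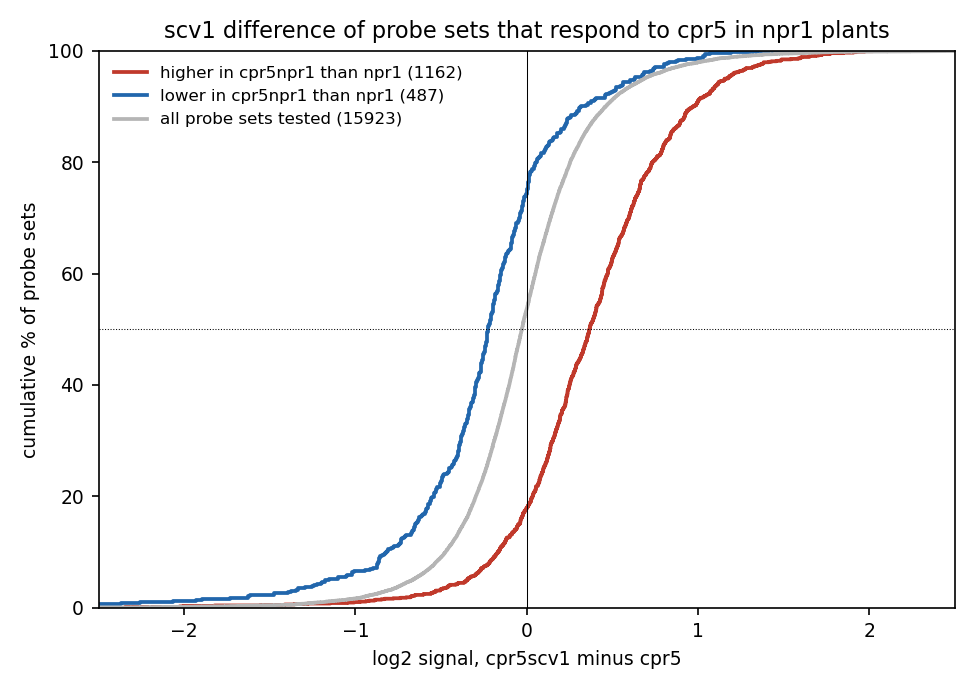
Cumulative share of probe sets (vertical axis, percent) by log2 signal difference, cpr5scv1 minus cpr5 (horizontal axis), for the 1162 probe sets higher and the 487 lower in cpr5npr1 than in npr1, and for all 15923 tested. The curves of the 1162 and the 487 lie to the right and to the left of that of all probe sets, with medians of 0.37, -0.22 and -0.03.

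Set against the wild type, cpr5scv1 differed in more probe sets than cpr5 did: 5412 were called in cpr5scv1 (34%), 2796 higher (17.6%) and 2616 lower (16.4%), and 2773 in cpr5 (17.4%), 1671 higher (10.5%) and 1102 lower (6.92%). Both comparisons use the same WT arrays, and the difference between the counts was not tested. Without the block the counts were 3565 in cpr5scv1 and 1387 in cpr5. The balance of higher and lower calls depended on the normalization. Scaled to a single median for all arrays, cpr5scv1 had 2035 higher and 4070 lower, and cpr5 had 1223 higher and 2456 lower. With quantile normalization the numbers were 2380 higher and 3000 lower in cpr5scv1, and 1335 higher and 1111 lower in cpr5. Without cpr5scv1 replicate 1 the cpr5scv1 count was 3233, and without cpr5 replicate 1 or replicate 2 the cpr5 count was 1062 or 1102. SWEET8, SWEET13 and ALN are examples of genes called in cpr5 and not in cpr5scv1, while XTH32, CYP71B6 and EXGT-A3 are examples of the reverse, which is a description of thresholds and not a test of a difference.

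The second suppressor of the series, svi1, was measured in cpr5npr1 plants, so the 2 effects differ in background as well as in mutation. It had 632 calls (3.97%), 399 higher (2.51%) and 233 lower (1.46%). The difference between the scv1 effect and the svi1 effect was called for 188 probe sets (1.18%), 41 higher (0.257%) and 147 lower (0.923%), but for 4 without the block and for 2 to 19 when 1 array of cpr5scv1, cpr5 or cpr5npr1svi1, or cpr5npr1 replicate 1, was left out. CR4, a receptor kinase gene of the epidermis, was the named gene with a called scv1 effect among the 5 largest fitted differences. It was below background in both cpr5scv1 arrays, at 3.15 and 1.5, against 21.8 and 15.1 in cpr5 and 25.4 and 21.7 in WT. CR4 was thus at least 2.34-fold lower than in cpr5 (adjusted p = 0.00446 for the fitted difference). In cpr5npr1svi1 it had 25.1 and 28.2, against 12.8 and 14.2 in cpr5npr1 (log2 difference 0.98, adjusted p = 0.284). The fitted difference between the 2 effects was -4.04 on the log2 scale (adjusted p = 0.0244). With the cpr5scv1 arrays raised to background it was -2.21 or beyond, a bound that was not tested. The scv1 call of CR4 was lost without cpr5 replicate 1 (adjusted p = 0.065). EXO, in contrast, was also lower in cpr5npr1svi1 than in cpr5npr1 (log2 change -1.73, adjusted p = 0.00312), and the difference between its 2 effects was not called (-1.05, adjusted p = 0.16). Other large scv1 changes were also called the same way for svi1. Among them were AT3G23550 (svi1 log2 change 3.05, limma adjusted p = 0.00543), UGT72E1 (2.43, 0.000743), AT5G50915 (-2.23, 0.000204) and AT5G25240 (-2.01, 0.00221). Others, such as CYP71B22 (-0.11, 0.899) and AT1G60590 (-0.24, 0.534), were not called for svi1.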

How the data were processed

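The deposited value of a probe set is its signal intensity on a linear scale, made with MAS5 per the submitters' processing notes. Version and settings of MAS5 are not given. Each array's mean after leaving out the lowest and highest 2% was about 100, and no further scaling was applied. The log2 of the deposited signal was taken with no pseudocount. Control sets and the dimmest 30% of the others by mean log2 signal were left out.

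Names came from the platform annotation and a TAIR10.1 gene table: 13513 probe sets had 1 gene, 503 several and 8730 none listed, and 1551 had a symbol other than the locus code. Of 387 loci in the hand-written lists, 64 had such a probe set. Members and lists were chosen with earlier results of these data known. Other lists were drawn from gene symbols, and genes whose symbol passed the test were named and grouped after their values were seen.

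The fit used R 4.3.3 and limma 3.58.1 (lmFit and eBayes, with a trend on intensity) with 6 group means and the replicate number as a block over 12 arrays, 5 residual and 5.29 prior degrees of freedom, and Benjamini-Hochberg adjustment over 15923 probe sets within each contrast. Every adjusted p comes from limma. Replicate numbers come from the sample titles; for all 15 pairs of groups, the replicate 1 minus replicate 2 differences correlated, at 0.175 to 0.363, and the arrays were treated as paired. The code was tested on simulated data.

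Named genes were the 12 largest rises and 12 largest falls among called, single-gene probe sets whose groups did not overlap and whose brighter mean was at or above the median signal, 42.7; at most 4 called genes per list, or 2 as values where none was called; PDF1.2; and the 5 largest differences between the scv1 and svi1 effects. Further list members given as values were chosen after their values were seen. Where both arrays, or 1, of the dimmer group lay below background, each such array was raised to it and the fold is a lower bound. The adjusted p beside a bound belongs to the fitted difference, and the bound itself was not tested. The 20 alternatives were 8 settings and the omission of each of the 12 arrays. The number of arrays limits the precision.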

Additional observations from a re-analysis of the deposited data

Results flagged for a closer look

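For 5 genes the scv1 effect (cpr5scv1 minus cpr5) and the svi1 effect (cpr5npr1svi1 minus cpr5npr1) differed by limma's test of that difference, the largest fitted values among named probe sets. In 3 of them a group had an array below the background of 7.76, so that the fitted value is not a measured size and the bound is given beside it. For AT1G26650 the fitted difference was -4.79 on the log2 scale (adjusted p = 0.00259) and -4.63 with both cpr5npr1 arrays, which lay below background, raised to it: the signal was 86.5 and 96.6 in cpr5scv1 against 137 and 107 in cpr5, and 167 and 126 in cpr5npr1svi1 against 6.75 and 7.23 in cpr5npr1. Its neighbour in gene order, AT1G26640, had a fitted difference of -4.14 (adjusted p = 0.00703), or -3.83 with the 1 cpr5npr1 array below background raised to it, with 155 and 121 in cpr5scv1 against 137 and 122 in cpr5, and 137 and 134 in cpr5npr1svi1 against 5.05 and 10.4 in cpr5npr1. In both genes the 2 cpr5npr1 arrays were the low ones of these 8, and the scv1 effect itself was not called. CR4 had a fitted difference of -4.04 (adjusted p = 0.0244), or -2.21 with both cpr5scv1 arrays raised to background, a bound smaller in size than the difference of AT5G64110. AT5G64110 differed by -2.77 (adjusted p = 0.0301), with 57 and 33.9 in cpr5scv1 against 52.5 and 51.9 in cpr5, and 52.8 and 75.3 in cpr5npr1svi1 against 9.65 and 12.5 in cpr5npr1. AT5G33370 differed by 2.59 (adjusted p = 0.0301): it had 67.8 and 105 in cpr5scv1 against 42 and 39 in cpr5, and 30.4 and 68.8 in cpr5npr1svi1 against 128 and 137 in cpr5npr1.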

How the results depend on the processing

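With 2 arrays a group, the counts depended on the fit. Under the pairing by replicate number 605 probe sets were called for scv1, and without the block 128. The count was 225 with no intensity trend, 1805 with only the groups compared in the fit, and 72 to 997 when 1 of the 12 arrays was left out, highest without a WT array. The difference between the scv1 and svi1 effects went from 188 calls to 4 without the block, 375 with a pseudocount of 32, 119 with no filter, 9 with no intensity trend, 520 with only the groups compared, and 2 to 412 with 1 array left out. For cpr5scv1 against WT, 5412 calls became 3565 without the block, 2984 with only the groups compared, and 3233 (without cpr5scv1 replicate 1) to 5364 with 1 array left out. For cpr5 against WT, 2773 became 1387 without the block, 1675 with only the groups compared, and 1062 (without cpr5 replicate 1) to 2797 with 1 array left out. The median of the probe sets higher in cpr5npr1, 0.37, was 0.47 without the block, 0.39 with quantile normalization, 0.44 with one median for all arrays, 0.27 with a pseudocount of 32, 0.40 with no filter, 0.33 with the dimmest 50% left out, 0.40 with no intensity trend, 0.39 with only the groups compared and 0.34 to 0.50 with 1 array left out. That of the probe sets lower there, -0.22, was -0.17 with one median for all arrays, -0.17 with a pseudocount of 32, -0.24 with no intensity trend and -0.26 to -0.19 with 1 array left out. Both kept their sign in all 20 alternatives. The share of scv1 calls that were higher was 42.0%, also with quantile normalization, and 44.5% with one median for all arrays. In the comparisons with WT, the balance of higher and lower calls did depend on the normalization, as given above. Of 78 called probe sets listed by name or code, 33 were called without the block, 42 with no intensity trend, 17 in all 12 omissions and 16 in all 20 alternatives; 0 changed direction. The cause of these shifts was not tested. Signal near background limits the scv1 values of EXPA20, CR4, BZIP34, WSD1, AT5G62360, THI2.1 and the 2 largest rises with no listed gene to bounds, and likewise the scv1 minus svi1 values of AT1G26650, AT1G26640 and CR4.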

Other observations

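In cpr5scv1, 15 probe sets lay below background in both arrays and above it in all 10 arrays of the other groups, 9 of them with a single gene. The same count was 2 for cpr5, 30 for WT, 9 for cpr5npr1svi1, 5 for cpr5npr1 and 14 for npr1. Besides CR4, they included BZIP34, a transcription factor gene studied in pollen, with 1.55 and 2.34 in cpr5scv1 against 13.3 and 21.4 in cpr5 and 34.8 and 26.7 in WT. BZIP34 was at least 2.17-fold lower than in cpr5 (adjusted p = 0.0112 for the fitted difference). They also included SWEET10, with 5.88 and 3.25 in cpr5scv1 against 10.5 and 15.3 in cpr5, and TBL43, of the same family as TBL26, with 4.56 and 1.68 against 23 and 17.1; both were too dim to be tested. SWEET10 and SWEET13 are next to each other in the gene order of the annotation. WSD1, a wax ester synthase gene, was below background in 1 of 2 cpr5scv1 arrays, at 4.34 and 10.2 against 24.5 and 39 in cpr5. It was at least 3.48-fold lower (adjusted p = 0.0184 for the fitted difference). The BZIP34 and WSD1 calls were lost without any 1 of the 4 arrays compared (adjusted p 0.0523 to 0.191), that of WSD1 also without the block (0.0912) and that of BZIP34 with a pseudocount of 32 (0.0868).

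Calls were spread over the 5 nuclear chromosomes, with 3.66%, 3.61%, 2.93%, 3.67% and 2.83% of tested single-gene probe sets called on chromosomes 1 to 5, and no run of at least 20 neighbouring genes had a running median beyond 0.5 in either direction. Of 2950 pairs of genes that are neighbours in the annotation and were both tested, 11 had both genes called, 10 of them in the same direction. One such pair is AT2G29290 and AT2G29300, lower by log2 changes of -1.24 (adjusted p = 0.00402) and -2.31 (adjusted p = 0.00615), and another is EXO and AT4G08940, at -2.78 and -0.98 (adjusted p = 0.0451 for AT4G08940).

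Among probe sets with no single listed gene and bright enough for the signal median, the 2 largest called falls exceeded that of AT1G50040. That was the largest fall with a gene under the same limit on signal (log2 change -2.79). The largest fall had 24 and 15.8 in cpr5scv1 against 620 and 93.2 in cpr5 and 132 and 33.7 in WT (log2 change -3.62, adjusted p = 0.0174), with the 2 cpr5 arrays far apart. The next had 33.7 and 37.8 against 364 and 198 in cpr5 (log2 change -2.91, adjusted p = 0.00143), a call kept in every alternative fit. The largest rises had 102 and 115 against 3.76 and 12.8 in cpr5, at least 10.9-fold higher (adjusted p = 0.0203), and 89.6 and 75 against 3.27 and 10.4 in cpr5, at least 9.11-fold higher (adjusted p = 0.00289). Both adjusted p values belong to the fitted differences and not to the bounds.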
